A study of Saccharomyces cerevisiae with 6 samples.

Results

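The naive libraries were polyadenylated RNA from Saccharomyces cerevisiae BY4743, a diploid laboratory strain, grown in rich glucose medium (YPD: yeast extract, peptone and dextrose) and harvested in mid-logarithmic phase. They were chosen by their genotype label and make up 3 of the 6 libraries of the series, each from a separate biological replicate. The other 3 libraries come from diploid cells in the [ESI+] state and enter no value below. No drug, induction or further genotype was labelled. By its textbook genotype, BY4743 is MATa/MATα, lacks HIS3, LEU2 and URA3 function through deletions on both homologues, and carries MET17 and LYS2 deletions on 1 homologue each.

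Budding yeast given ample glucose ferments it to ethanol even in air, and represses genes for respiration, for other carbon sources and for making glucose. Growth is then fast, and much of the cell's mRNA serves glycolysis and the building of ribosomes. An ancient duplication of the whole genome left many of these genes as paralogous pairs, and most ribosomal proteins are encoded by such a pair, named A and B. Transcription of many yeast genes also starts and ends at several sites, so that 1 gene yields mRNA isoforms with different ends.

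The deposited tables listed 17906 isoforms of 2850 genes, against 6008 nuclear coding genes in the R64 annotation, so every count is over a partial set of genes. Levels are TPM, estimated counts per effective length (isoform length less fragment length) scaled to the same total in each library, and were summed over isoforms. Total estimated counts ranged from 1080941 in naive replicate 2 to 5934050 in naive replicate 3, and these totals set the precision of low values. Between libraries, Pearson's r of log2(TPM + 1) over the 2850 genes was 0.941 to 0.959, as a description, since genes are no replicates. The biological coefficient of variation (edgeR's common dispersion over 2829 genes) was 32.2%. It is 1 value pooled over genes for the spread between replicates beyond counting error, not that of each gene. The SD of TPM over its mean, counting error included, was under 25% in 1317 of the 2850 genes. RPL26B took 15.5% of the counts of naive replicate 3. This library also stood apart in other genes, among them TDH3, ENO2 and PGK1, which are described below. The isoforms of 199 listed genes with a coding intron were all at least as long as the span with the intron. The lengths of intron genes therefore include their introns, and a TPM of a spliced mRNA is understated by this length.

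Few of the genes that MATa/MATα cells turn off were listed, too few to check the labelled diploid state. Of 8 genes specific to a cells, 3 were listed, all with few counts and all among the 712 lowest genes by mean TPM. The a-factor precursor gene MFA1 had 5, 0 and 4 estimated counts in naive replicates 1, 2 and 3, MFA2 had 5, 0 and 1, and AGA2, which encodes part of the a-cell agglutinin, had 14, 3 and 5. On the TPM scale MFA1 was at 13.3, 0 and 39.98 TPM, MFA2 at 7.66, 0 and 2.15 TPM and AGA2 at 11.1, 13.9 and 3.62 TPM. Of 13 haploid-specific genes only STE4, the beta subunit of the pheromone-response G protein, was listed, at 23.1, 17.7 and 10.05 TPM. No gene of the 4 specific to alpha cells was listed. Genes specific to a cells are off in alpha cells too, so their low values cannot tell diploid from alpha cells. URA3, which makes uridine and whose coding region the textbook genotype lacks, went against that genotype. It had 114, 15 and 1169 estimated counts, or 32.3, 17.1 and 245 TPM, and naive replicate 3 held most of them. The histidine gene HIS3 was at 40.9, 35.6 and 62.1 TPM and MET17, for sulphur assimilation, at 59.9, 27.1 and 27.7 TPM.

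A small number of genes held most of the mRNA signal, and the 25 leading genes of each library were largely the same. The 100 most abundant genes held 58.1%, 61.6% and 59.5% of all TPM in naive replicates 1, 2 and 3 (mean 59.7% ± 1.76, SD, n = 3). The top 10 genes alone held 29.2%, 30.2% and 34.0%. Between 42 and 52 genes were enough to reach 50% of a library's TPM. The lower 50% of genes together held 3.44% to 4.30%. The median gene was at 69.3, 57.9 and 66.6 TPM. Transcripts of nearly every listed gene were found, since 2839 genes had at least 1 TPM in all 3 libraries. Between 128 and 143 genes passed 1000 TPM, and between 12 and 14 passed 10000. Of the 25 genes leading each library, 19 were the same in all 3. Their order varied, and RPL26B, first in naive replicate 3, ranked 19 and 8 in naive replicates 1 and 2.

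**Figure D1:**
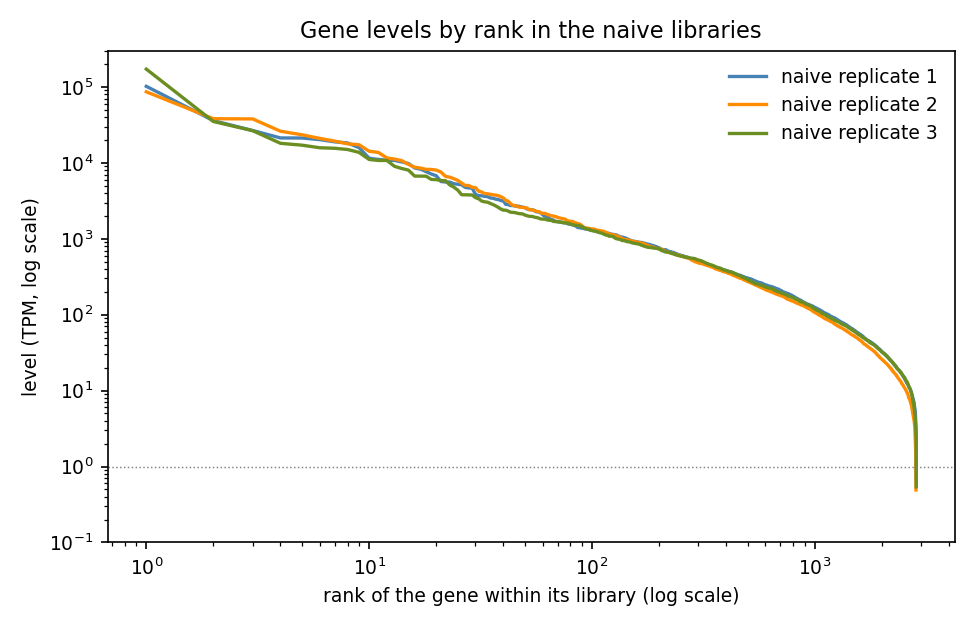
Level of each gene (TPM, log scale) against its rank within its library (log scale), with 1 line per naive replicate and a dotted line at 1 TPM. The lines lie close together from rank 10 on, and naive replicate 3 starts highest, at 171914 TPM, the value of RPL26B.

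Glycolysis supplied the most abundant transcripts. Of 17 glycolytic genes, all were listed and 16 were among the 712 most abundant, the upper 25% of all genes. TDH3, the main glyceraldehyde-3-phosphate dehydrogenase gene (chrVII:882812-883810, minus strand), had the largest mean of all genes, with 102009, 86331 and 35061 TPM in naive replicates 1, 2 and 3. It was the leading gene of replicates 1 and 2 and came after RPL26B in replicate 3. The enolase gene ENO2 (chrVIII:451327-452640) was at 36015, 38176 and 15010.3 TPM. Phosphoglycerate mutase GPM1 was at 26706, 19359 and 18102 TPM, and phosphoglycerate kinase PGK1, which makes ATP, at 21303, 23442 and 8431 TPM. TDH3, ENO2 and PGK1 were each lowest in naive replicate 3, at less than 50% of either other library, while the aldolase gene FBA1 was highest there (11512, 13726 and 17105 TPM). Triose-phosphate isomerase TPI1 varied least among the top 25 genes, at 8274, 8774 and 8031 TPM (mean 8359.6 ± 379 TPM, SD, n = 3).

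The kinases at the start of the pathway showed lower levels. The phosphofructokinase subunit genes PFK1 and PFK2 averaged 277 ± 71.1 TPM and 479.8 ± 120.5 TPM (SD, n = 3). Among the enzymes that phosphorylate glucose, glucokinase GLK1 averaged 1136 ± 507 TPM, hexokinase HXK1 975 ± 256 TPM and HXK2 722 ± 299 TPM, and their ranges overlapped. CDC19, the main pyruvate kinase, was at 5150.0, 5411 and 9003 TPM, and its paralogue PYK2 was lowest of the list at 48.6, 34.2 and 61.7 TPM. Together the 17 genes held 24.7%, 23.1% and 13.4% of TPM (mean 20.4% ± 6.13, SD, n = 3). Leaving RPL26B out of the total gave 24.8%, 23.5% and 16.1%, so the share of naive replicate 3 was lower on either base.

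Reads of glycolytic paralogues must be told apart by few bases, and a stretch is shown for 2 such pairs. Here and below, each stretch is the in-frame window of 60 bases, inside a single exon, with the most differing bases. It is therefore less alike than the coding region as a whole. The TDH3 and TDH2 coding regions differ at 42 of 999 bases, and the stretch shown, coding bases 64 to 123, holds 12 of them (chrVII:883688-883747 and chrX:454559-454618, both minus strand, build R64). The ENO2 and ENO1 coding regions differ at 68 of 1314 bases, with 13 in the stretch shown, coding bases 340 to 399 (chrVIII:451666-451725 and chrVII:1001266-1001325, both plus strand). Capitals mark the bases that differ between the members of a pair.
TDH3: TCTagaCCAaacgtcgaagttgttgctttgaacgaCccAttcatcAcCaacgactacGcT
TDH2: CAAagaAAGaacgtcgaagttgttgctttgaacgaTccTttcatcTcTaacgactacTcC
ENO2: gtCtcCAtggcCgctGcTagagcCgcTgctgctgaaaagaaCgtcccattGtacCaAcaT
ENO1: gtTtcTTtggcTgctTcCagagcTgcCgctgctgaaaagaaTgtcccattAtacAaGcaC

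**Figure D2:**
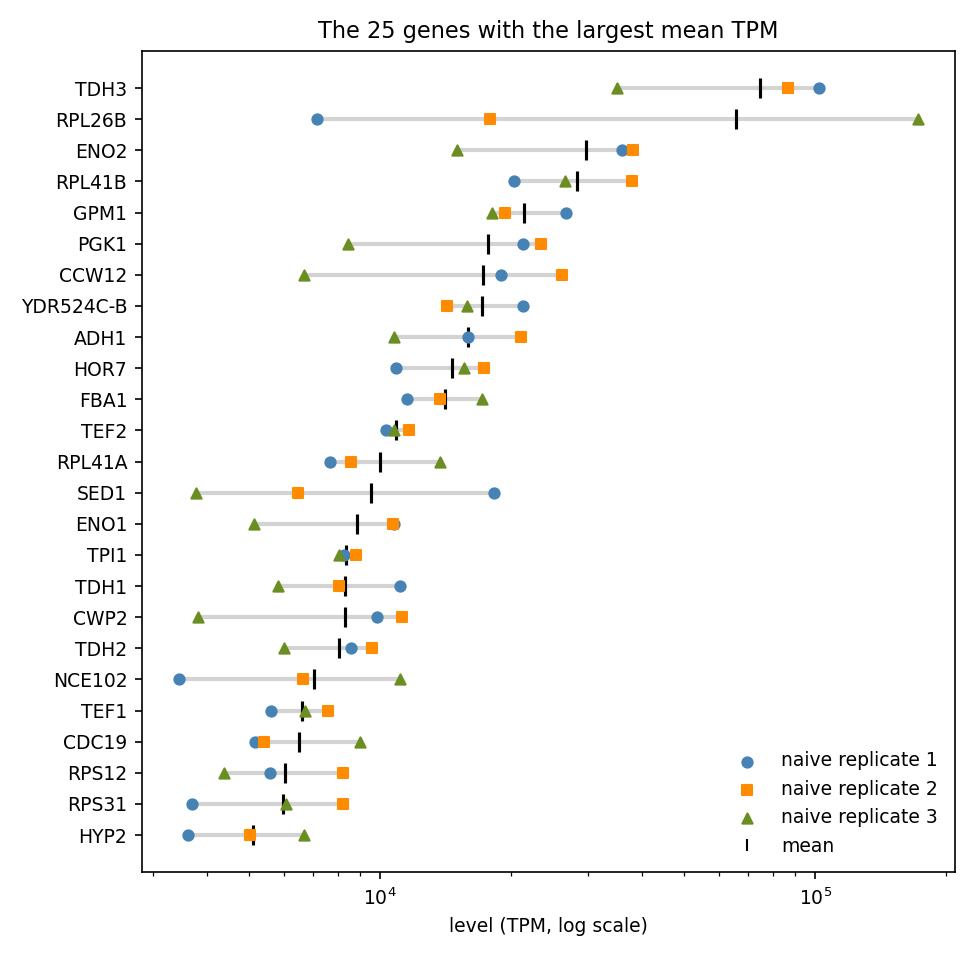
Level (TPM, log scale) of the 25 genes with the largest mean, with 1 symbol per naive replicate, a grey line over their range and a black tick at the mean. RPL26B spans 7139 to 171914 TPM, the widest range, while TPI1 and TEF2 span the narrowest.

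The genes that turn pyruvate into ethanol were also high. Alcohol dehydrogenase ADH1 was at 15894, 21030.1 and 10754 TPM and pyruvate decarboxylase PDC1 at 4753, 4715 and 3367 TPM. The mitochondrial enzyme gene ADH3 averaged 751 ± 87.5 TPM, and ADH4 was lowest of the 8 listed genes for ethanol and glycerol at 31.3 ± 2.74 TPM (SD, n = 3). Of the glycerol branch, glycerol-3-phosphate dehydrogenase GPD1 was at 715, 513 and 570.2 TPM and the phosphatase GPP1 at 481, 429 and 998 TPM. Its paralogue GPP2 was lower in every library, at 235, 138 and 209.8 TPM. ADH5, a minor alcohol dehydrogenase gene, was at 93.7, 132 and 114 TPM.

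The hexose transporters did not follow the order known for cells in high glucose. HXT7, a high-affinity transporter known to be repressed by high glucose, led the 7 listed transporter and sensor genes at 3588, 1726 and 1853 TPM. Its coding region is 99.8% identical to HXT6, which was not among the listed genes, so reads of both may be counted under HXT7. HXT3, a low-affinity transporter, followed at 1194, 498 and 546 TPM, then HXT4 at 878, 446 and 664 TPM and HXT2 at 412, 134 and 160.3 TPM. HXT3 and HXT4 overlapped in range. HXT1, the low-affinity transporter known to be induced by high glucose, was at only 16.1, 7.96 and 6.67 TPM, among the 712 lowest genes. The galactose permease GAL2 was at 7.15, 7.88 and 4.96 TPM and the glucose sensor RGT2 at 4.25, 1.79 and 3.85 TPM. Glucose in the cultures was not measured in these data.

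Of 18 genes for other carbon sources and gluconeogenesis known to be repressed by glucose, only 4 were listed, and 3 of these were among the 712 lowest genes. PCK1, which commits carbon to gluconeogenesis, was at 10.6, 12.1 and 19.1 TPM, the glycerol kinase gene GUT1 at 11.97, 6.44 and 8.08 TPM, and the lactate permease gene JEN1 at 9.097, 2.89 and 7.98 TPM. The cytosolic malate dehydrogenase gene MDH2 stood higher at 228, 110.2 and 157 TPM. Of the galactose genes, the repressor gene GAL80 was at 37.7, 6.09 and 40.6 TPM, with only 10 estimated counts in naive replicate 2. The inducer gene GAL3 was at 2.89, 2.12 and 3.74 TPM, and GCY1, a reductase gene, stood at 192, 182 and 239 TPM. Tricarboxylic acid cycle genes were intermediate, with a median of 209.7 TPM over 12 listed genes, against 66.4 for all genes. In this list MDH1 was highest (769 ± 337 TPM), followed by SDH4 (482 ± 331 TPM), while LSC1 (119 ± 23.8 TPM) and SDH1 (75.7 ± 18.02 TPM) were lowest (mean ± SD, n = 3).

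**Figure D3:**
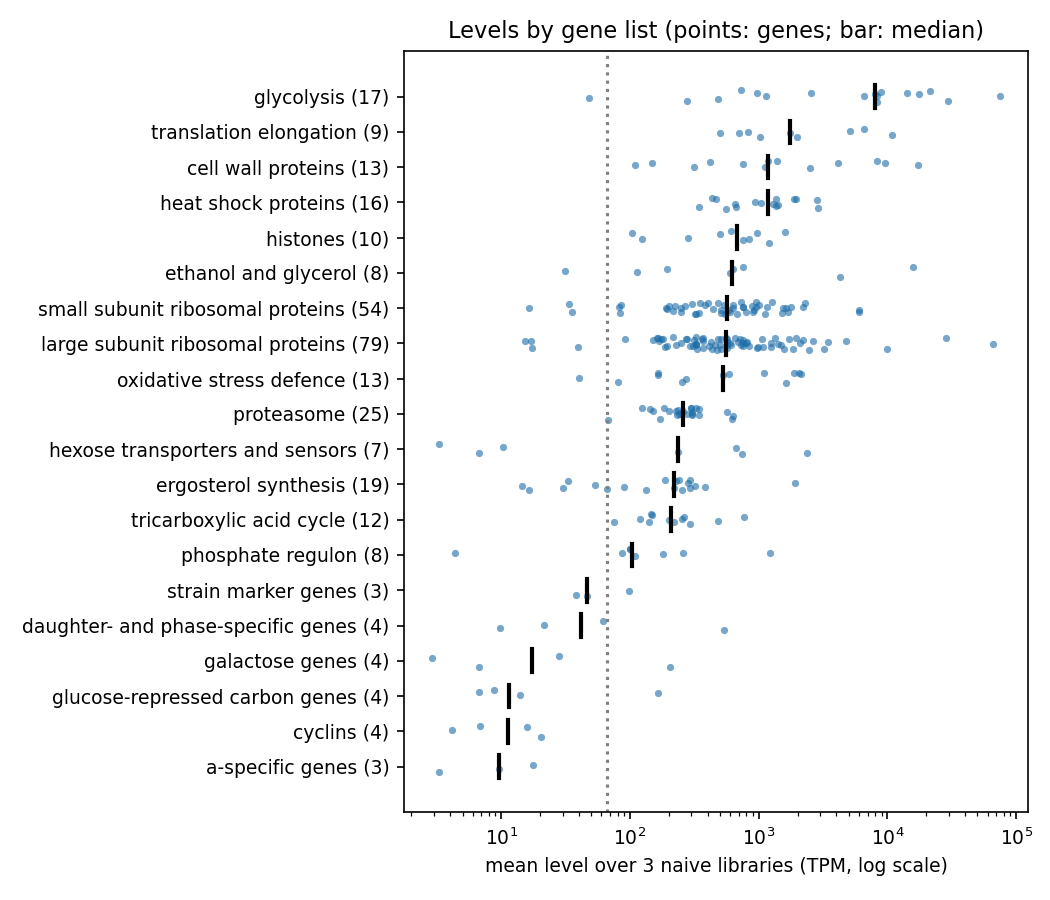
Mean level over the 3 naive libraries (TPM, log scale) of each listed gene, grouped by gene list with the number of listed genes in brackets, a black bar at each list's median and a dotted line at the median of all genes, 66.4 TPM. Lists with fewer than 3 listed genes are left out. Of the lists plotted, glycolysis has the highest median, and genes of a cells, cyclins and glucose-repressed carbon genes have the lowest.

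Ribosomal protein genes were numerous and high, and 1 of them led a library. Of the small subunit 54 of 56 genes were listed and of the large subunit 79 of 81, 133 in all, with medians of 568 and 560.5 TPM. Among the 712 most abundant genes were 47 and 66 of them. RPL26B (chrVII:555812-556672, plus strand) was at 7139, 17830.3 and 171914 TPM in naive replicates 1, 2 and 3, from 28106, 18553 and 920587 estimated counts. Its rank was 19, 8 and 1. In naive replicate 3 nearly all of its signal lay in 2 of its 68 isoforms, of 947 and 1016 bases, with 453915 and 439568 estimated counts. Its paralogue RPL26A stayed at 77.1, 54.4 and 144 TPM. The cause of the RPL26B value was not tested. Ribosomal protein genes held 12.7%, 19.1% and 31.97% of TPM, and without RPL26B 12.1%, 17.6% and 17.9%. By estimated counts, which are not divided by length, the shares without RPL26B were 7.16%, 9.58% and 10.1%.

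The RPL26B and RPL26A coding regions differ at 26 of 384 bases. The stretch shown, coding bases 55 to 114, lies beyond the intron and holds 7 of them (chrVII:556343-556402 and chrXII:819813-819872, both plus strand, build R64). It is printed because the 2 genes stood farthest apart of all ribosomal protein pairs tested. Capitals mark the differing bases.
RPL26B: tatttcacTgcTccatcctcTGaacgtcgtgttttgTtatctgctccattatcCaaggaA
RPL26A: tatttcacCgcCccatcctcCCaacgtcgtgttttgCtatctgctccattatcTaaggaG

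RPL41B and RPL41A, which encode the smallest ribosomal protein, came next on the TPM scale at 20249.7, 37949 and 26571 TPM and 7675, 8548 and 13756 TPM. Their isoforms are short, and TPM divides by a length that is close to 0 for the shortest. By estimated counts alone RPL41B ranked 110 and RPL41A 212, and per full isoform length 27 and 42. Isoforms with an effective length under 50 bases held 0%, 4.999% and 5.41% of TPM in naive replicates 1, 2 and 3, but at most 0.111% of counts. The median of isoform length less effective length, taken here as the mean fragment length, was 203, 259 and 270.4 bases in the same order. Of the small subunit, RPS12 led at 5584, 8194 and 4369 TPM, then RPS31, which encodes a fusion to ubiquitin, at 3690.4, 8214 and 6059 TPM. The lowest were RPS9A (16.3 ± 8.89 TPM) and RPS22B (33.5 ± 6.35 TPM), and, for the large subunit, RPL22B (15.3 ± 2.85 TPM) and RPL7B (16.9 ± 4.18 TPM, mean ± SD, n = 3). The 88 ribosomal protein genes with a coding intron had a median of 393 TPM and the 45 without had 1495, a gap that includes the intron length counted in the former.

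Translation elongation genes had a median of 1753 TPM, above the medians of the ribosomal protein genes of either subunit. Intron length lowers those medians, and the 45 ribosomal protein genes without a coding intron had a median of 1495 TPM. Whether the lists differ was not tested. All 9 listed genes were among the 712 most abundant. TEF2 and TEF1 both encode elongation factor 1A, which brings aminoacyl-tRNA to the ribosome. TEF2 was at 10300.1, 11623 and 10767 TPM and TEF1 at 5599, 7568 and 6701 TPM, with no overlap between the 2 genes. HYP2, the elongation factor 5A gene, was at 3625, 5030.5 and 6676 TPM. The lowest of the list were CAM1 (497 ± 319.6 TPM) and EFT1 (702 ± 30.6 TPM, mean ± SD, n = 3). The TEF2 and TEF1 coding regions differ at only 2 of 1377 bases, so their split rests mainly on the ends of the transcripts. The stretch shown, coding bases 703 to 762, holds 1 of these bases, in capitals (chrII:478373-478432 and chrXVI:701296-701355, plus strand, build R64).
TEF2: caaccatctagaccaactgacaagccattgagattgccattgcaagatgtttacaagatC
TEF1: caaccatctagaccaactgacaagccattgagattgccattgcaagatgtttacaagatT

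Cell wall and membrane proteins filled much of the rest of the top ranks. CCW12, a mannoprotein of newly formed cell wall, was at 18934, 26124 and 6686 TPM. SED1, a structural wall protein, was at 18290.3, 6480.3 and 3771 TPM and CWP2 at 9816, 11216 and 3803 TPM. These 3 genes were all lowest in naive replicate 3, and the 13 listed wall genes together held 6.43%, 5.56% and 2.16% of TPM. At the low end of this list were PIR1 (149 ± 59.4 TPM) and SUN4 (109.8 ± 32.6 TPM, mean ± SD, n = 3). NCE102, a protein of plasma membrane domains called eisosomes, went the other way with 3445, 6642 and 11075 TPM. HOR7, a small protein induced by high osmolarity, was at 10851, 17336 and 15569 TPM. YDR524C-B, a short gene whose product is not characterised, was at 21259.7, 14237 and 15822 TPM. In naive replicates 2 and 3 its leading isoforms, of 278 and 277 bases, were hardly longer than the mean fragments. Its mean was 17106 TPM but 9482 per full isoform length, and its rank was 8 by TPM, 13 per full isoform length and 25 by estimated counts.

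Chaperone genes were abundant without a labelled stress. All 16 listed heat shock genes were among the 712 most abundant, between 345.9 and 2872 TPM on average. HSC82, the constitutive Hsp90 gene, was at 2740.4, 4138 and 1738 TPM and HSP12, a small membrane-associated protein, at 2598, 3937 and 2019.9 TPM. The lowest were SSA4 (432 ± 119 TPM) and YDJ1 (346 ± 42.7 TPM, mean ± SD, n = 3). Of 10 histone genes, 8 were among them too. HHT2 and HHT1, for histone H3, led with 1613 ± 627 TPM and 1198 ± 518 TPM, while the variant HTZ1 (123 ± 46.3 TPM) and the linker histone HHO1 (104 ± 24.7 TPM) were lowest. Core histone mRNA in yeast carries a poly(A) tail, so oligo-dT enrichment can retain it.

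Most genes varied less than 2-fold between libraries, and a minority varied more. Of 1634 genes with a mean of at least 50 TPM, 467 spanned more than 1 unit of log2(TPM + 1) and 35 more than 2. The 467 genes peaked in naive replicate 1 in 197 cases, in replicate 2 in 82 and in replicate 3 in 188. The genes named next are the 10 with the widest range, so their spread is what chose them and no test applies. CYC1, the main cytochrome c gene of respiration, had 237, 6184 and 2460.2 TPM from 447, 2685 and 5682 estimated counts, lowest in naive replicate 1. PDX1, which encodes a subunit of pyruvate dehydrogenase and lies beside TDH3 on chromosome VII, had 102, 1062 and 503 TPM, in the same order. HAP4, the limiting activator of respiratory genes, had 208, 392 and 1526 TPM, highest in naive replicate 3. CYC1 and HAP4 thus peaked in different libraries.

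ADE17, for purine synthesis, was also highest in naive replicate 3 at 53.2, 155 and 399 TPM, as were the ribosomal protein gene RPS7B (251, 912 and 1696 TPM) and PIN3, a gene linked to prion induction (160.1, 55.3 and 368 TPM). TOS6, a cell wall protein gene, was lowest there (232, 203 and 37.5 TPM). RPL26B and URA3 are given above. YLR146W-A completes the 10 with 54.6, 182 and 607 TPM, but these rest on 18, 3 and 19 estimated counts of short isoforms. Of the 10 genes, 7 were highest in naive replicate 3.

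Paralogues often differed in level, and the same member led in most libraries. Within each library the difference in log2(TPM + 1) between the members of a pair was taken, and limma tested whether its mean over the 3 libraries was 0 (two-sided, Benjamini-Hochberg adjustment over 187 pairs). At an adjusted p under 0.05, 133 of 187 pairs differed, or 71.1%. In 157 pairs the same member was higher in all 3 libraries. The median absolute difference was 1.23, a 2.34-fold ratio. Of the called pairs, 103 differed at least 2-fold, 60 at least 4-fold and 23 at least 16-fold. Among 57 ribosomal protein pairs 38 differed, close to the share over all pairs, with the A member higher in 23 and the B member in 15. The other pairs written down by hand differed in 18 of 31 cases, and the further best protein matches in 77 of 99.

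Of the enzyme pairs written down by hand, CDC19 and PYK2 stood farthest apart. CDC19 was higher than PYK2 by 7.04 (SE 0.234, adjusted p = 1.69e-05) on the log2 scale, and their values above do not overlap. TDH2 less TDH3 was -3.10 (SE 0.241, adjusted p = 1.93e-04): TDH2 was at 8565, 9549.9 and 6016 TPM, below TDH3 in each library, with a gap that was narrowest in naive replicate 3. The third gene of this enzyme, TDH1, was at 11085, 8035 and 5828 TPM. ENO1, at 10772, 10707 and 5117 TPM, was below ENO2 by the same measure, with a difference of -1.71 (SE 0.174, adjusted p = 5.28e-04). GPP1 was above GPP2 by 1.63 (SE 0.293, adjusted p = 0.00477). Homocitrate synthase LYS20 was above LYS21 by 1.23 (SE 0.262, adjusted p = 0.00877), and the leucine synthesis gene LEU4 above LEU9 by 3.30 (SE 0.362, adjusted p = 7.06e-04).

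The 2 phosphofructokinase subunits and the 2 hexokinases did not pass the threshold. PFK1 less PFK2 was -0.79 (SE 0.332, adjusted p = 0.0802), since PFK2 led in naive replicates 1 and 2 (538, 559.9 and 341 TPM against 253, 221 and 357 TPM for PFK1) and not in replicate 3. Without naive replicate 3 this difference became -1.21 (limma adjusted p = 0.00342), and without naive replicate 2 -0.51 (0.311). HXK1 was above HXK2 by 0.48 (SE 0.223, adjusted p = 0.106), with the same sign in all 3 libraries. TEF1 less TEF2 was -0.73 (SE 0.186, adjusted p = 0.0169), a call that was lost without naive replicate 1 (limma adjusted p = 0.118) or without naive replicate 2 (0.0794). The outer mitochondrial membrane channel POR1 was above POR2 by 6.49 (SE 0.396, adjusted p = 8.96e-05), and the peroxiredoxin TSA1 above TSA2 by 4.50 (SE 0.254, adjusted p = 7.18e-05). Alpha-tubulin TUB1 was above TUB3 by 2.35 (SE 0.202, adjusted p = 2.72e-04).

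Cytochrome c showed the least stable pair. CYC7, the minor isoform gene, was steady at 917, 637 and 695 TPM, while CYC1 lay below it in naive replicate 1 and above it in the other 2. Their mean difference was 1.05 (SE 0.973, adjusted p = 0.359). Without naive replicate 1 it was 2.55 (limma adjusted p = 7.34e-04), without naive replicate 2 it was -0.0627, and without naive replicate 3 it was 0.66.

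Chaperone and histone pairs were tested in the same way. HSC82 was above HSP82, the heat-inducible Hsp90 gene, by 1.06 (SE 0.21, adjusted p = 0.00644), with very similar gaps in all 3 libraries. The Hsp70 genes SSA1 and SSA2 gave -0.56 (SE 0.305, adjusted p = 0.147), and without naive replicate 3 -0.92 (limma adjusted p = 0.0155). Without naive replicate 1 or 2 it was smaller, at -0.36 (limma adjusted p = 0.462) and -0.40 (0.421). HTB1, for histone H2B, was above HTB2 by 1.39 (SE 0.259, adjusted p = 0.00533). HHF1 less HHF2, for histone H4, was -0.80 (SE 0.22, adjusted p = 0.0219), a call lost without naive replicate 1 (limma adjusted p = 0.0632) or without naive replicate 2 (0.129). HTA1 less HTA2, for H2A, was -0.73 (SE 0.326, adjusted p = 0.0941), with -0.95 without naive replicate 3 (limma adjusted p = 0.0312) and -0.32 without naive replicate 2 (0.441). HHT1 less HHT2 was -0.46 (SE 0.351, adjusted p = 0.272), and it moved to -0.0624 without naive replicate 3 (limma adjusted p = 0.856) and -0.86 without naive replicate 2 (0.0913). The translation factors TIF1 and TIF2, with identical proteins, differed by 1.39 (SE 0.268, adjusted p = 0.0058), whereas EFT1 less EFT2 was -0.48 (SE 0.257, adjusted p = 0.139), and -0.25 without naive replicate 2 (0.534).

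**Figure D4:**
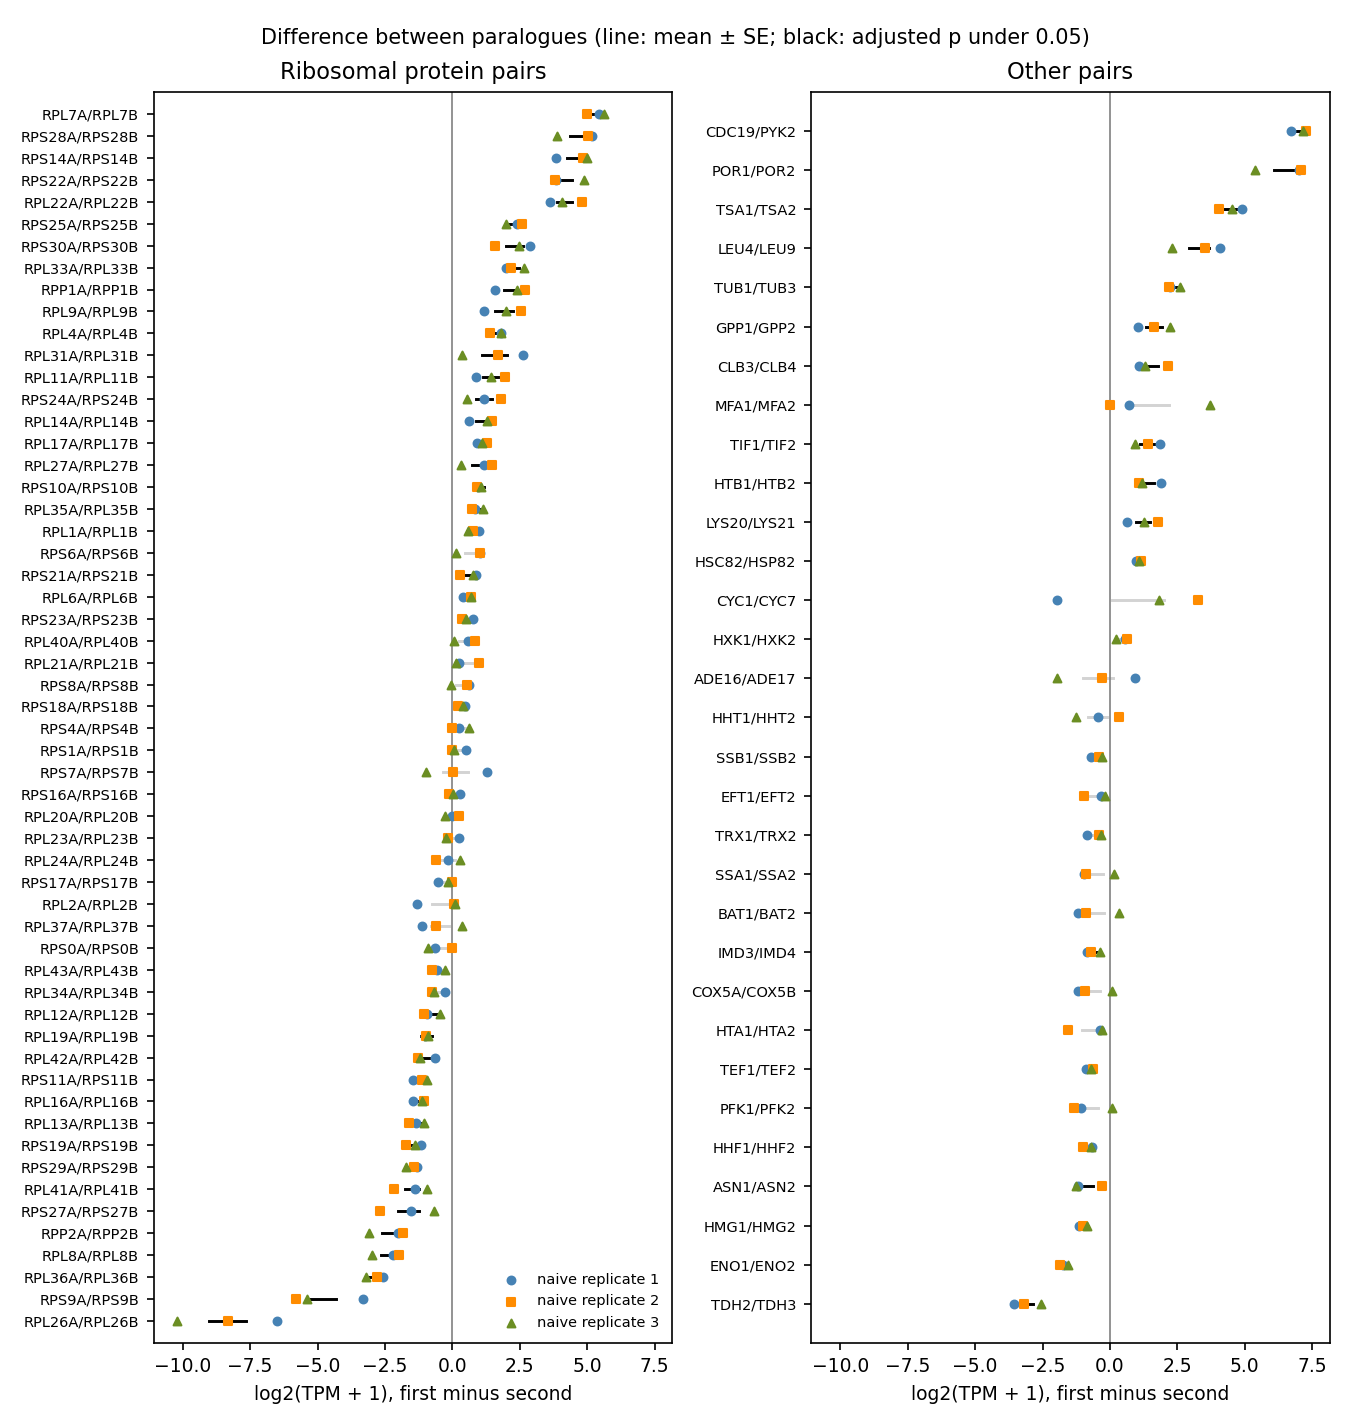
Difference in log2(TPM + 1) between the members of the hand-written pairs, 1 left out (first named less second), ribosomal proteins on the left and other pairs on the right, with 1 symbol per naive replicate and a line over mean ± SE, black where the adjusted p is under 0.05 and grey otherwise. RPL26A/RPL26B lies farthest to the left, and CYC1/CYC7 has symbols on both sides of 0.

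The differences within ribosomal protein pairs ranged from near 0 to a single dominant member. RPL26A less RPL26B was -8.35 (SE 0.684, adjusted p = 2.15e-04), and without naive replicate 3 it was still -7.42 (limma adjusted p = 2.02e-07). RPS9A less RPS9B was -4.83 (SE 0.496, adjusted p = 5.40e-04) and RPL36A less RPL36B -2.86 (SE 0.232, adjusted p = 2.11e-04). On the other side, RPL7A was above RPL7B by 5.35 (SE 0.209, adjusted p = 2.17e-05). The A member also led in RPS28A (4.69 (SE 0.323, adjusted p = 1.22e-04)), RPS14A (4.55 (SE 0.288, adjusted p = 9.98e-05)), RPS22A (4.17 (SE 0.28, adjusted p = 1.16e-04)) and RPL22A (4.16 (SE 0.27, adjusted p = 1.07e-04)). RPS22B has a coding intron and RPS22A none, so the intron length counted for RPS22B widens their gap. Introns of unequal length also enter the gaps of other pairs, to an extent that was not tested. Without the pairs in which only 1 member has an intron, an unplanned setting, limma called 125 of 178 pairs.

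Other pairs had differences near 0 whose sign varied between libraries. The RPL20A and RPL20B difference was -0.0073 (SE 0.228, adjusted p = 0.976), that of RPL23A and RPL23B -0.055 (SE 0.218, adjusted p = 0.832), and that of RPS16A and RPS16B 0.057 (SE 0.211, adjusted p = 0.822). A p above the threshold does not show equal levels, and a difference of several SEs could still miss the threshold: RPL34A less RPL34B, at -0.57 (SE 0.21, adjusted p = 0.0542), was not called. Ribosomal pairs whose proteins aligned with 100% identity differed in 9 of 21 cases, with a median absolute difference of 0.54, and pairs with unequal proteins in 28 of 35, with 1.47. RPL41A and RPL41B, too short for a protein match, are in neither group. Whether the 2 groups of pairs differ was not tested. Reads of near-identical genes can be shared out between them, and the part of this in the pair values was not tested. Of the listed genes, 58 had a copy with at least 95% identity over at least 50% of the coding sequence, and for 54 of them the copy was listed too.

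The isoform tables put most of a gene's signal in 1 isoform, but which isoform that was varied between libraries. Isoforms were listed singly for 730 genes, and 2120 genes had at least 2, with a median of 3 over all genes and 193 for YDR524C-B. The leading isoform is the one with the largest mean TPM of its gene. It was described for 1393 genes with at least 2 isoforms and at least 50 estimated counts in each library. Its mean share of the gene's TPM had a median of 82.3% over genes (quartiles 62.3% and 93.8%), and its SD over the 3 libraries had a median of 13.6 percentage points. The share was at least 90% in 490 genes and under 50% in 167. The same isoform led in all 3 libraries in 927 genes, or 66.5%, and each library had another leader in 64.

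By median share, a leader chosen in naive replicate 2 or 3 held less in the libraries that did not choose it. Chosen in naive replicate 1, 2 or 3, its median share was 81.7%, 97.2% and 89.5% in the choosing library, and 84.6%, 78.5% and 80.5% in the other 2. The drop was widest for naive replicate 2, the shallowest library, and was also seen for naive replicate 3, the deepest. A part of depth in it was not tested. For naive replicate 1 the median share was instead higher in the other 2 libraries. Where leaders differed, they were near in length, with a median range of 16.5 bases over 466 genes and 404 of them within 50 bases. Only 6 genes had leaders over 200 bases apart. Reads common to such similar isoforms can be shared out between them, and the part of this in the shares and leaders was not tested. With isoforms whose lengths differ by under 10 bases counted as 1, 944 of 1299 genes (72.7%) kept 1 leader, with a median share of 86.3%. The leader was the shortest listed isoform of 526 genes and the longest of 187. In genes without an intron it reached a median of 171 bases beyond the coding region.

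Genes with more listed isoforms had smaller leading shares. With 2 isoforms the median share was 93.2% and 77.6% of genes kept 1 leader in all libraries. With 3 to 5 isoforms these values were 87.6% and 73.4%, with 6 to 10 they were 78.6% and 66.9%, and with 11 to 20 they were 69.998% and 60.8%. With 21 or more they were 49.9% and 32.5%. Across the 1393 genes Spearman's rho was -0.49 between isoform number and share, 0.54 between TPM and isoform number, and -0.22 between TPM and share. These are descriptions across genes that share libraries and depth. The largest of a few parts tends to be a large part, and libraries agree on a leader more easily among few isoforms. Part of the trend with isoform number is therefore set by the measure, and how much was not tested.

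**Figure D5:**
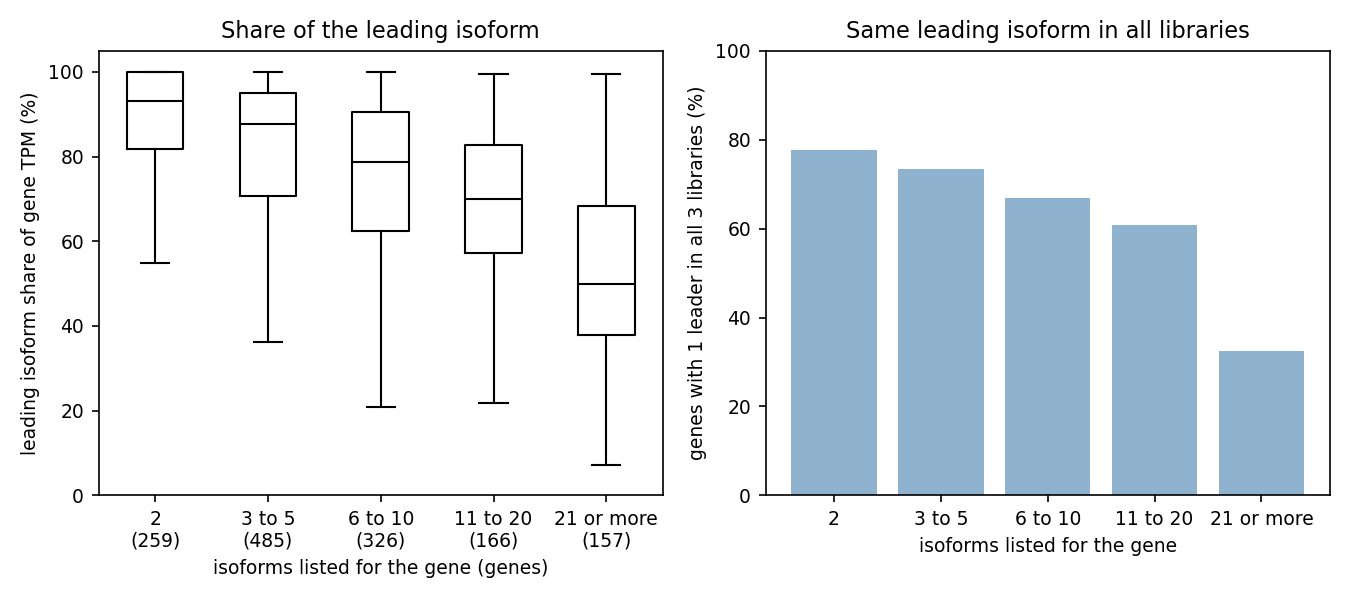
Left, mean share of a gene's TPM held by its leading isoform (%) by number of listed isoforms, with the number of genes in brackets, as boxes of median and quartiles with whiskers to the last gene within 1.5 box lengths. Right, percentage of the same genes whose leading isoform was the same in all 3 naive libraries, falling from 77.6% at 2 isoforms to 32.5% at 21 or more.

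Most glycolytic genes kept their leader. In glycolysis 13 of 15 genes had the same leader in all libraries, against 66.5% of all genes described and 73.4% of those with 3 to 5 isoforms. TDH3, ENO2 and TDH2 list only 5, 4 and 3 isoforms, while FBA1 lists 13 and CDC19 21. Glycolytic genes were not compared with other genes of equal isoform number. The TDH3 leader, 1109 bases long, held 75.6%, 86.1% and 82.3% in naive replicates 1, 2 and 3, that of ENO2 88.8%, 92.03% and 82.1%, that of TDH2 97.7%, 99.3% and 98.2% and that of GPM1 86.5%, 90.7% and 86.1%. ADH1 gave 78.1%, 94.2% and 87.5%, FBA1 50.6%, 92.7% and 87.2% and TPI1 58.6%, 87.2% and 79.5%. ENO1 (50.96%, 74.5% and 57.3%) and TEF1 (44.9%, 74.7% and 52.5%) also kept theirs, at lower shares. PGK1 had a single listed isoform. TDH1 was an exception, with a leader that held 2.15%, 87.1% and 84.1%, since an isoform of 1130 bases led in naive replicate 1 and that of 1137 bases in the others. CDC19 (26.8%, 68.4% and 67.5%) and TEF2 (15.6%, 59.5% and 65.96%) changed leader in naive replicate 1 as well.

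Ribosomal protein genes, which often have many listed isoforms, kept their leader in 20 of 49 small subunit and 40 of 74 large subunit genes (40.8% and 54.1%). Of all genes described 66.5% kept it, and of those with 21 or more isoforms 32.5%. For RPL26B each library had another leader, of 989, 1016 and 947 bases, holding 58.02%, 78.1% and 51.8% of the gene in its own library. RPL41B also had 3 leaders, and RPL41A 2. RPS12 (11.5%, 34.4% and 64.99%) and RPS31 (55.00%, 42.7% and 28.97%) had 2 each. Among the wall genes 9 of 11 kept their leader. CCW12, with 128 isoforms, kept it at 52.9%, 65.5% and 41.4% and CWP2 at 23.6%, 75.9% and 51.8%, while SED1 changed (77.9%, 36.4% and 33.3%). NCE102 kept its leader at 81.8%, 93.3% and 81.7% and HYP2 at 76.3%, 77.6% and 84.6%, but HOR7 did not (3.34%, 30.96% and 65.1%). Of 8 histone genes 2 kept theirs. The wall and histone sets are small, and none of these groups was compared with other genes of equal isoform number.

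Taken by share among genes with at least 5 isoforms and 500 estimated counts in each library, the most uniform genes were RPL15A and SSA1, with 100% in all 3 libraries, then RPL24B, PDC1 (99.8%, 99.6% and 99.9%), RPS8B (99.975%, 99.969% and 99.2%) and RPL24A. RPL24A kept 98.7%, 99.6% and 99.979% in 1 of 56 listed isoforms, so a long list does not by itself give a small share. The most divided genes were RPS23B (0.0818%, 25.8% and 15.6%), RPS19B (0.00958%, 59.5% and 3.77%), the peroxiredoxin gene AHP1 (42.8%, 24.3% and 0.012%), YDR524C-B (53.99%, 4.2% and 11.6%), RPL41B and RPL27A (0.53%, 19.4% and 54.3%). Among genes with at least 500 estimated counts in each library and 2 or more isoforms, the shares that varied most between libraries were those of TDH1 with its 3 isoforms, the pyruvate dehydrogenase subunit gene PDA1 (6.63%, 99.4% and 63.6%), the casein kinase subunit gene CKB2 (68.7%, 9.46% and 99.997%), RPL28 (6.15%, 88.3% and 70.4%), RPS26B (20.9%, 86.4% and 98.96%) and RPL41B (0%, 70.98% and 0%). These genes were chosen by the share or its SD, so the values describe them and test nothing.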

How the data were processed

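Transcript abundances came from 3 naive libraries of a series of 6. The authors ran kallisto 0.43.1 on build R64, per the submitters' processing notes. The origin of the isoform models, strand handling and the tool's options are not given in the sources used here. The deposited tables hold estimated counts per isoform, not normalized, and the deposited TPM values are scaled by the authors' tool for effective length and to the same total per library, per the file headers. Total estimated counts were 4361435, 1080941 and 5934050.

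Both units were summed over the isoforms of a gene, named at the end of the isoform identifier, and 2849 of 2850 genes matched R64 by systematic name. Estimated counts were rounded to whole numbers for edgeR 4.0.16 (minimum count 10, TMM), used for the spread alone. Paralogue pairs were 88 hand-written pairs with both members listed and 99 further reciprocal best hits (blastp 2.17.0, at least 40% identity over 80% of both lengths) among proteins translated from the R64 annotation, since the planned protein table was not used here. They were tested with limma 3.58.1 on R 4.3.3 (trend, pseudocount 1, at least 1 TPM in either member). Sequences and coordinates are from the R64 reference. The limma and edgeR steps were tested on simulated data.

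The genes, lists and tests were chosen with earlier results of these data known. Named genes are the 25 with the largest mean TPM, list members (in lists of more than 8, the 2 highest and 2 lowest), hand-written pairs, the 10 widest ranges above 50 TPM, and the 6 most extreme for each isoform measure. Other genes named, and the choice of which pairs to print, followed their values. Alternatives changed the pseudocount, filters, unit, pair set, isoform grouping and libraries. The [ESI+] libraries were not used. The values of 1 ribosomal protein pair are not reported here.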

Additional observations from a re-analysis of the deposited data

How the results depend on the processing

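No paired analysis was possible because only the naive group is described, and paralogue differences were already taken within a library. The count of differing pairs, 133 of 187, was 53 of 88 with the hand-written pairs alone, and between 106 and 139 with 1 library left out. Over all other settings it lay between 90 (of 126 pairs, without those over 95% identical in protein) and 133. Of 39 pairs followed under a smaller pseudocount and without each library, 27 kept their side of the threshold and their direction in every setting. Differences that changed sign with 1 library left out ranged from -0.0627 to 2.55 for CYC1/CYC7, -0.48 to 0.66 for RPS7A/RPS7B, -0.635 to 0.0760 for RPL2A/RPL2B, -0.14 to 0.13 for RPL20A/RPL20B, -0.197 to 0.0432 for RPL23A/RPL23B and -0.0536 to 0.148 for RPS16A/RPS16B. The share of the 100 most abundant genes was 56.7% without RPL26B, an alternative chosen after seeing the data, and 51.1% for 50 genes. Genes with the same leading isoform numbered 197 of 283 (69.6%) at 500 counts in each library, a smaller set of genes. With 1 library left out they numbered 1022 to 1515, since fewer libraries must agree and, without naive replicate 2, more genes pass the count minimum. The median leading share lay between 79.8% and 87.1% in all settings run. The biological coefficient of variation ranged from 28.5% to 35.2% with 1 library left out. By CPM, 18 of the 25 leading genes were the same, and 23 were without naive replicate 3. The low depth of naive replicate 2 limits values of genes with few counts.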

Other observations

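Further gene groups of the naive cells are given as values. The 25 listed proteasome genes had a median of 259.4 TPM, and 19 were among the 712 most abundant genes. PUP2 (628 ± 202 TPM) and SCL1 (624 ± 148 TPM), which encode subunits of the catalytic core, were highest (mean ± SD, n = 3). RPN10 (124 ± 21.6 TPM) and RPN4 (67.4 ± 10.5 TPM), the transcription factor of proteasome genes, were lowest. Of 13 genes for defence against oxidants, superoxide dismutase SOD1 (2582, 2181 and 1681 TPM) and the peroxiredoxin gene AHP1 (2434, 2348 and 1340.1 TPM) led, and TSA2 (80.6 ± 1.65 TPM) and GPX2 (39.8 ± 17.4 TPM) were lowest. Ergosterol synthesis was uneven. ERG25, a sterol oxidase gene, stood at 1219.7, 1584 and 2915 TPM, with ERG11 next at 380.1 ± 149 TPM, while ERG7 (16.5 ± 1.29 TPM) and HMG1 (14.5 ± 2.38 TPM) were lowest of 19 listed genes. HMG2 was above HMG1 in all 3 libraries, and the HMG1 less HMG2 difference was -0.9999 (SE 0.181, adjusted p = 0.00488) by limma. Without naive replicate 1 its adjusted p was 0.0515.

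Phosphate genes spread widely. VTC1, for polyphosphate storage, was at 1678, 1132 and 868 TPM and the phosphate transporter gene PHO84 at 306, 222 and 242 TPM. VTC4 (182 ± 10.2 TPM), VTC2 (109 ± 28.5 TPM), VTC3 (100.2 ± 17.6 TPM) and the acid phosphatase gene PHO3 (99.3 ± 38.7 TPM) were lower. PHO5, the acid phosphatase known to be induced in low phosphate, was at 36.3, 65.6 and 159.7 TPM, highest in naive replicate 3, and the transporter gene PHO89 at 5.48, 4.15 and 3.51 TPM. Of 12 cyclin genes 4 were listed. The cyclin genes CLB3 (20.3 ± 0.736 TPM), CLB1 (15.7 ± 4.995 TPM), CLB4 (6.82 ± 2.603 TPM) and PCL1 (4.12 ± 0.362 TPM) were all among the 712 lowest genes, and CLB3 was above CLB4 by 1.51 (SE 0.266, adjusted p = 0.00456) by limma. Of 7 daughter- and phase-specific genes 4 were listed. The daughter-specific chitinase gene CTS1 was highest of these at 475, 541 and 586 TPM. The replication clamp gene POL30 was at 61.2 ± 14.5 TPM, the ribonucleotide reductase gene RNR1 at 21.3 ± 9.68 TPM and the mitotic activator gene CDC20 at 9.75 ± 2.198 TPM. Of 20 genes for meiosis and sporulation only IME4 was listed, at 9.75, 6.73 and 12.3 TPM.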
